A study of Mus musculus with 12 samples.

Results

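The regions described here are 1744 windows of 1000 bp whose nearest annotated gene was a microRNA gene, of 67822 windows in the deposited table (2.57%). A window was a member if the table named a gene Mir plus a digit, or Mirlet7, as nearest and placed the window at most 100 kb from that gene's annotated start. The 1744 windows belonged to 504 microRNA genes, of 15879 genes with a window within that limit. Windows of 5 host genes of microRNAs (20 windows) were left out, as were 233 microRNA windows beyond the limit. The farthest member lay at 99941 bp and the nearest window outside at 100022 bp.

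MicroRNAs are short RNAs cut from hairpins within longer primary transcripts. Loaded into an Argonaute protein, a microRNA pairs with messenger RNAs, mainly through its seed near the 5′ end, and lowers their translation or stability. In macrophages and microglia, miR-155, miR-146a, miR-21, miR-142 and miR-223 are known as regulators of inflammatory signalling, while let-7 and miR-124 are linked to differentiation and to neural tissue. H3K27ac, the acetylation of lysine 27 of histone H3, is found at active promoters and enhancers, so it speaks of the chromatin near a microRNA gene and not of the amount of the mature RNA. The annotated start used here is that of the hairpin, and the promoter of the primary transcript may lie elsewhere.

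Microglia positive for CD11b, taken with magnetic beads from the forebrain of mice, were profiled by chromatin immunoprecipitation and sequencing (ChIP-seq) with 1 antibody serum against H3K27ac. Wild-type mice of C57BL/6N background were compared with mice lacking Cias1, the gene now called Nlrp3, which encodes the sensor of an inflammasome (line from Millennium Pharmaceuticals, named Nlrp3-/-), with 3 H3K27ac and 3 input chromatin libraries per genotype. The labels give no age, sex, treatment or disease model, and do not say whether replicates came from different mice, so p-values measure the spread between these libraries, which may be technical in part. The knockout's strain background is not given beyond this.

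The H3K27ac libraries held 3726550 to 5028129 tags, with a median of 10 to 13 per microRNA window, and the input libraries 3287009 to 6961590 tags, with a median of 2 to 5. Of the tags in all windows, 2.43% to 2.50% fell in microRNA windows in the H3K27ac libraries and 2.28% to 2.32% in the input libraries. Promoter windows, within 1 kb of a start, were present for 19 of 20 homeostatic microglia markers. Each marker was given its highest promoter window in each genotype, so these values are not medians over all promoter windows. The median H3K27ac over input of these markers was 11.6 in wild type and 15.04 in the knockout. Of the other lists, 1 neuron, 2 astrocyte, 4 oligodendrocyte, 4 vessel cell and 3 border macrophage markers had a promoter window. Taken in the same way, the medians of these lists were 0.915 to 1.83 in wild type and 0.833 to 2.00 in the knockout. Single markers reached 3.40 (oligodendrocytes) and 3.78 (vessel cells) in wild type, above the lowest microglia marker at 3.07. No lymphocyte marker of 10 had a promoter window. The monocyte and neutrophil markers had 1 of 10, Csf3r, at 19.5 and 32.3. The 8 windows of the targeted gene, Nlrp3, summed to 556, 457 and 511 H3K27ac tags in wild type against 196, 226 and 148 in the knockout, lower in every knockout library. In 7 windows on the Y chromosome, wild-type H3K27ac replicate 1 held 12 tags and the other 5 H3K27ac libraries 193 to 280, so that library stood apart and results are also given without it. Wild-type input replicate 1 held 1 tag there, against 43 to 112 in the other inputs. The wild-type replicates therefore did not all come from the same material, and sex may differ between them.

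Mature sequences were found in the RefSeq table of GRCm38.p6 for 444 of the 504 microRNA genes, 715 sequences with 651 distinct seeds. Mir187 and Mir124a-3, both described below, had none there. Most seeds belonged to 1 microRNA gene, and 47 were shared by 2 or more. The sequences below run 5′ to 3′ with the seed, bases 2 to 8, in capitals. The first set holds the microRNAs of 2 genes that were nearest to windows with lower H3K27ac in the knockout. For Mir148a these windows lay at least 91281 bp from the hairpin, and for Mir3086 all came from the wild-type site list only. With them are the 2 other members of the seed group of miR-148a, miR-148b and miR-152, which the same seed lets pair with the same kind of target site.
miR-3086-5p: uAGAUUGUaggcccauugga
miR-3086-3p: cCCAAUGAgccuacagucuaag
miR-148a-3p: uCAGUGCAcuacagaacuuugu
miR-148b-3p: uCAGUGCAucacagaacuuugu
miR-152-3p: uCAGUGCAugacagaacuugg

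The second set holds microRNAs known from myeloid cells or with the most H3K27ac around them. The miR-146 pair shares the seed GAGAACU, and miR-29a and miR-29b share AGCACCA. The genes Mir142 and Mir142b are annotated on opposite strands of the same place, so their products are complementary in part.
miR-142a-3p: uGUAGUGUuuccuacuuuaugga
miR-142a-5p: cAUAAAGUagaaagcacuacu
miR-142b: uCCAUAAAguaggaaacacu
miR-146a-5p: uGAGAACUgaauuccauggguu
miR-146b-5p: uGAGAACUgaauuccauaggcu
miR-21a-5p: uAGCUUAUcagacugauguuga
miR-23a-3p: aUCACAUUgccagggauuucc
miR-29a-3p: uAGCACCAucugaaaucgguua
miR-29b-3p: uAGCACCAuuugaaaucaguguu

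The third set is the let-7 family, 5 members of which share the seed GAGGUAG and differ in few bases elsewhere.
let-7a-5p: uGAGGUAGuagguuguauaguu
let-7b-5p: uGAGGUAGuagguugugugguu
let-7d-5p: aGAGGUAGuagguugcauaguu
let-7i-5p: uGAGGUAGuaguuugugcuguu
let-7k: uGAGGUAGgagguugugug

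The microRNA windows were a distal, intronic set. Of the 1744, 153 (8.77%) lay within 1 kb of the hairpin start, against 27.6% of all windows within 100 kb of a gene. Their median distance was 13145.5 bp, against 7932.5 bp. Introns held 940 of them (53.9%, against 42.9% of all windows), intergenic sequence 514, and only 96 (5.50%, against 19.5%) were annotated as promoters. A microRNA gene had a median of 2 windows and at most 29 (Mir29b-1), and 198 genes had 1. Neighbouring windows can share tags, since 363 began before the previous one had ended. Each window came from a site list of wild type (300 windows), of the knockout (183) or of both (1261).

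H3K27ac over input, the ratio of mean CPM on a library's total tags with 0.5 added to both, had a median of 2.52 in wild type and 2.71 in the knockout over the microRNA windows. Over all windows it was 2.93 and 3.22. Within 1 kb of the start the wild-type median was 4.24 for microRNA genes (153 windows) and 5.46 for other genes (17348 windows). From 30 to 100 kb it was 2.44 for microRNA genes (420 windows) and 2.17 for other genes (12868 windows). The quartiles of both kinds of window overlapped widely at each distance.

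**Figure D1:**
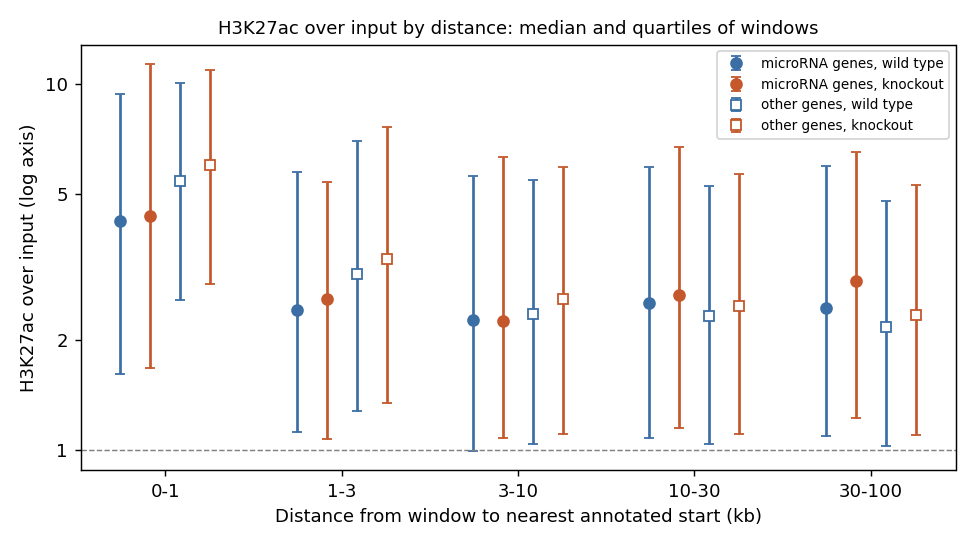
H3K27ac over input (log axis) against the distance from the window to the nearest annotated start, in kb, for windows nearest microRNA genes (filled) and other genes (open), wild type in blue and knockout in orange. Points are medians and bars quartiles over windows, and the dashed line marks input level. The medians were highest within 1 kb, 4.24 for microRNA genes and 5.46 for other genes in wild type.

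A window was counted as carrying H3K27ac if edgeR's quasi-likelihood test of H3K27ac against input gave an adjusted p under 0.05 and a log2 ratio of at least 1. In wild type 672 microRNA windows passed, of 701 with enough tags to be tested, and in the knockout 697 of 722. The share of all tested windows that passed was 98.6% in wild type and 99% in the knockout, a share that the filter on low counts largely sets. In both genotypes 584 of the microRNA windows passed. No window passed in either genotype for 260 microRNA genes, a count that includes genes whose windows had too few tags to be tested. Of all 1744 microRNA windows 701 were tested in wild type and 722 in the knockout, so these genes cannot be said to lack H3K27ac. Matching counts over all windows and genes are not given, so the 584 windows and 260 genes cannot be read as particular to microRNA genes. Scaling by TMM (trimmed mean of M values) in place of total tags, which centres most windows at no difference, passed 104 of 786 and 141 of 871 tested microRNA windows. Of all windows tested it passed 4110 of 33047 in wild type and 5234 of 36917 in the knockout.

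The tested windows called below input all belonged to Mir101c, 21 in wild type and 23 in the knockout of its 26 windows, where 0.434% and 0.439% of all tested windows were called below. These windows lay at 0.272 to 0.788 times input in wild type. Their wild-type input level had a median of 14.7 CPM, against 0.719 for the other 1718 microRNA windows. They held 35.3% to 43.9% of all input tags in microRNA windows and 2.32% to 3.52% of the H3K27ac tags. A high H3K27ac sum for Mir101c (780 ± 166 CPM in wild type, SD, n = 3) therefore lay below its input. For sums and tested windows, CPM is relative to the TMM-scaled tags over what was tested, and so is larger than on the library total.

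Per window, the highest H3K27ac was at Mir1894, Mir142 and Mir29b-1. Mir1894 (chr17) had 1 window, 74 bp past its start, with 170, 281 and 244 tags in wild type against 288, 401 and 235 in the knockout. The 2 groups overlapped, and the wild-type level was 139 CPM, against a median of 11.6 CPM per window over the 303 tested microRNA genes.

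Mir142, the hairpin of a microRNA made across blood cell types, lies at chr11:87756864-87756927 (GRCm38). Its 8 windows spanned from 235 to 8004 bp upstream, and all 8 carried H3K27ac in both genotypes. Their summed tags were 986, 1026 and 1109 in wild type against 1351, 1277 and 1039 in the knockout. After scaling the means were 630.4 ± 15.4 and 637 ± 62.2 CPM (SD, n = 3), so the groups overlapped (log2 fold change 0.01, SE 0.10, adjusted p 0.997). The strongest of the 8, 8004 bp upstream, stood at 32.2 times input in wild type and 45.2 in the knockout.

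Mir142b, whose annotated hairpin (chr11:87756841-87756955) encloses that of Mir142, was nearest for the 2 windows on its own upstream side. They held 79, 116 and 165 tags in wild type against 76, 71 and 88 in the knockout. After scaling every knockout library was below every wild-type library, with a log2 fold change of -0.80 (SE 0.30, unadjusted p 0.0113, adjusted p 0.627), which did not pass. The nearest windows of the 2 genes overlap, were assigned by which start was nearer, and carry no strand here.

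Mir29b-1, of the miR-29 group known for targets in the extracellular matrix, lies at chr6:31063023-31063093. It had the most windows, and 26 of its 29 carried H3K27ac in each genotype. A near group of windows lay from 548 bp to 25165 bp upstream, and 15 windows farther out, to 63487 bp, fell in introns of the non-coding gene Lncpint. The sum over all 29 was 2534, 3015 and 3391 tags in wild type against 3421, 3587 and 2904 in the knockout, or 1798 ± 140 and 1720.2 ± 69.6 CPM (SD, n = 3). The groups overlapped (log2 fold change -0.06, SE 0.07, adjusted p 0.974). Over the Lncpint windows the median H3K27ac over input was 20.0 (wild type) and 24.3 (knockout). The other genes of this seed, Mir29a with 2 windows and Mir29c with 1, held at most 11 tags in any library and were not tested.

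Mir23a (chr8:84208518-84208592), the head of a cluster with Mir27a and Mir24-2 whose microRNA is reported to repress glutaminase, had 13 windows reaching 14751 bp upstream. The window at chr8:84200544-84201544, 7474 bp upstream, had the highest H3K27ac over input of all microRNA windows in wild type, 40.9, and 30.7 in the knockout. It held 140, 142 and 177 tags in wild type against 170, 211 and 157 in the knockout. The sum for Mir23a was 1168, 1113 and 1265 tags against 1524, 1625 and 1322. After scaling that was 717 ± 48.9 against 776 ± 22.9 CPM (SD, n = 3), with overlapping groups and a log2 fold change of 0.11 (SE 0.09, adjusted p 0.956).

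The other highest sums were those of Mir5130, Mir5123, Mir701, Mir7086, Mir6398 and Mir187. Mir5130 sits in Kctd12 and its 21 windows summed to 727 ± 20.5 CPM in wild type and 687 ± 55.2 in the knockout. Mir5123 sits in B4galt1, a galactosyltransferase gene, at 621 ± 83.8 and 561 ± 20.4 CPM. Mir7086 lies near Il10ra, the receptor gene for the anti-inflammatory cytokine IL-10, at 594 ± 58.3 and 561 ± 72.5 CPM. For all 6 the groups overlapped and the log2 fold changes lay between -0.15 and 0.00. The 5 windows highest over input in wild type were 2 of Mir23a, 2 of Mir7117 and 1 of Mir187, at 33.5 to 40.9. The 2 of Mir23a overlap each other, as do the 2 of Mir7117. Each of the 5 held at most 7 input tags in any wild-type library, so their order depends on few input tags.

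Some microRNA starts coincide with the promoter of a protein-coding gene, and there the window cannot be given to either. Outside 1 chromosome that was not searched, 36 stretches of RefSeq promoters (250 bases before to 50 after a start) lay wholly inside microRNA windows. Not all of these lie at a microRNA start, as with windows 30115 bp from Mir152 and 51939 bp from Mir719. Nor are all separate promoters, since Gm4258 and Zfp27 are each counted with more than 1 start. The promoters of Gspt1, a translation termination factor, and Zfp518a, a zinc finger gene, are shown because the hairpins of Mir1945 and Mir8092 start 54 and 37 bp from the centre of a strongly marked window that holds them. Capitals mark matches, on either strand, to the GC box GGGCGG, the CCAAT box CCAAT, the ETS core CCGGAAG or the PU.1 site GAGGAAGT, of which the last 2 share GGAAG. Positions are GRCm38.p6, Gspt1 at chr16:11254276-11254575 on the minus strand and Zfp518a at chr19:40894455-40894754 on the plus strand.
Gspt1: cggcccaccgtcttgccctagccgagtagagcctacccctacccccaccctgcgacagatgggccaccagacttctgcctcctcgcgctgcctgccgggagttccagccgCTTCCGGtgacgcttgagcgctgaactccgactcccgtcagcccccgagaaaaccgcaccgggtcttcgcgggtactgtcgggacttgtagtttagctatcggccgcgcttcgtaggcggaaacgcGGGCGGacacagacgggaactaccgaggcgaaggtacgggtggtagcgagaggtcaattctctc
Zfp518a: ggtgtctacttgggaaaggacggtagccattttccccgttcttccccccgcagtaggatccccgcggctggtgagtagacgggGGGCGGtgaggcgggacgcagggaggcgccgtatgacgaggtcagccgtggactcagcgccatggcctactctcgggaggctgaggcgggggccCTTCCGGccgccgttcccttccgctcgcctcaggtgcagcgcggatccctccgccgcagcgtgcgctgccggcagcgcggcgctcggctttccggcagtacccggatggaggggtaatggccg

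Each of the 2 promoters held 1 GC box and 1 ETS core. The window over Gspt1 and Mir1945 had 75, 97 and 80 tags in wild type against 112, 86 and 118 in the knockout, 23.5 and 16.9 times input. That over Zfp518a and Mir8092 had 53, 88 and 116 tags against 106, 75 and 73, 17.2 and 14.7 times input. The groups overlapped at both. Of the 36 stretches 19 held a GC box, 15 a CCAAT box, 6 an ETS core and 1 a PU.1 site. Among 32544 promoters of the same length the shares were 35.9%, 37.4%, 8.91% and 3.11%.

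To ask whether loss of Nlrp3 moved H3K27ac around microRNA genes, the genotypes were compared by edgeR's quasi-likelihood test and Benjamini-Hochberg adjustment over the whole table. Summed over windows, 303 of the 504 microRNA genes had enough tags to be tested and 3 were called at an adjusted p under 0.05. Of these, 2 were lower in the knockout, Mir3086 and Mir148a, and 1 was higher. Of all 12148 genes tested 25, or 0.206%, were called, 7 higher and 18 lower. The median log2 fold change was 0.00 over the tested microRNA genes and 0.00 over all genes, and 154 of the 303 were above 0. DESeq2 called the same 3 microRNA genes, where it called 0.203% of all gene sums. An unadjusted p under 0.05 was found for 19 of the 303 (6.27%, against 5.77% of all genes), and groups that did not overlap for 32 (10.6%, against 11.3%). The 201 microRNA genes that the filter removed had too few tags to be compared.

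**Figure D2:**
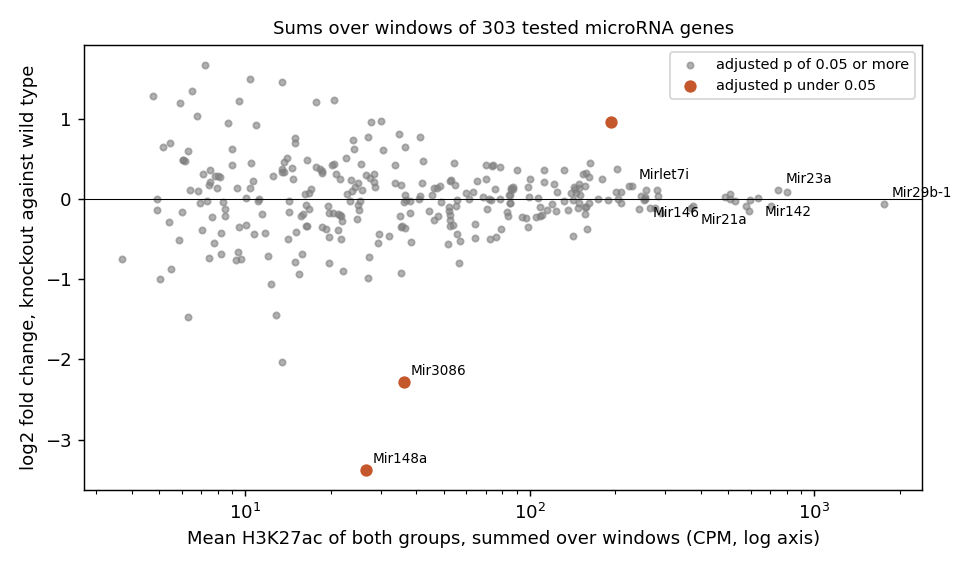
Log2 fold change of H3K27ac, knockout against wild type, against the mean of both groups in CPM (log axis), 1 point for each of the 303 tested microRNA genes summed over windows. The 3 orange points had an adjusted p under 0.05, among them Mir3086 at -2.28 and Mir148a at -3.38, while the labelled microRNA genes of high level lay near 0.

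Mir3086 is a hairpin at chr19:58911673-58911759 in an intron of Hspa12a, which encodes a distant relative of the HSP70 chaperones. Its 7 windows, from 7017 bp upstream to 7592 bp downstream, held 99, 93 and 104 H3K27ac tags in wild type against 28, 19 and 23 in the knockout. Each knockout library was below each wild-type library, at 59.9 ± 4.55 against 12.3 ± 2.87 CPM (SD, n = 3). The log2 fold change was -2.28 (SE 0.35, adjusted p 0.00101). Input tags over the same windows were 21, 31 and 22 in wild type against 24, 8 and 8 in the knockout.

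The difference at Mir3086 rested on 2 windows away from the hairpin. The window at chr19:58907680-58908680, 3579 bp downstream in the intron, held 26, 34 and 39 tags in wild type against 0, 2 and 4 in the knockout. H3K27ac over input there was 9.26 (wild type) and 1.01 (knockout). It was also the single microRNA window of 961 tested that was called in the window fit (log2 fold change -4.15, SE 0.79, adjusted p 0.0373), where 24 of 40370 windows (0.0595%) were called. Its adjusted p was 0.119 to 0.312 without knockout replicate 1 or 2 or without any 1 wild-type replicate, and 0.0215 without knockout replicate 3. The window 7017 bp upstream held 21, 20 and 37 tags against 0, 0 and 10 (adjusted p 0.687).

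The 3 windows at the Mir3086 hairpin overlap each other and share tags. From the hairpin outward their wild-type H3K27ac was 2.56, 3.00 and 2.78 CPM on the library total, against 0.858, 1.12 and 1.42 in the knockout. Over input that was 2.05, 2.07 and 2.14 times in wild type against 1.21, 2.10 and 1.79 in the knockout, on at most 7 input tags per library and window. All 7 windows of Mir3086 came from the wild-type site list only, so they entered the table through the group where they are high. The fold changes and p-values of Mir3086 and its windows are therefore a description. Dropping windows that overlap, an alternative added after seeing the data, gave a log2 fold change of -2.64 (adjusted p 0.000304). Hspa12a itself was nearest for 3 windows, with 34, 15 and 36 tags in wild type against 3, 3 and 12 in the knockout (log2 fold change -2.40, SE 0.74, adjusted p 0.396). Without any 1 library the Mir3086 sum kept an adjusted p of 0.00237 to 0.017, on windows that entered the table in the same way.

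Mir148a, whose microRNA is known for lowering the low-density lipoprotein receptor in liver and for roles in immune cells, lies at chr6:51269812-51269910. Its 3 windows were all distant, 91281 to 98815 bp downstream of the hairpin in intergenic sequence. They held 95, 77 and 65 tags in wild type against 17, 1 and 8 in the knockout, or 48.4 ± 12.6 against 4.64 ± 4.21 CPM (SD, n = 3). All knockout libraries were below all wild-type libraries, with a log2 fold change of -3.38 (SE 0.53, adjusted p 0.00107). The input held 12, 17 and 14 tags in wild type against 20, 4 and 6 in the knockout, and H3K27ac over input was 4.24 and 1.01.

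Of these windows, chr6:51170595-51171595 held 47, 42 and 44 tags in wild type against 12, 0 and 4 in the knockout (log2 fold change -3.23, SE 0.67, adjusted p 0.0813). The window at chr6:51172575-51173575 held 39, 30 and 21 against 5, 1 and 4 (log2 fold change -3.33, SE 0.74, adjusted p 0.13). Neither was called alone. DESeq2, which called 0.104% of all windows, called both (adjusted p 0.000305 and 0.00339). In edgeR, leaving out knockout replicate 1 gave the first an adjusted p of 0.035, and leaving out any other library 0.0865 to 0.448. The second had an adjusted p of 0.0664 to 0.801 in edgeR without any 1 library. The third held 9, 5 and 0 against 0, 0 and 0. It came from the wild-type site list only, so it entered the table through the group where it is high. Windows of both site lists alone gave the Mir148a sum a log2 fold change of -3.29 (adjusted p 0.00138 in edgeR).

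Just outside the limit, at 100849 and 101667 bp from Mir148a, lay 2 more windows, with 17, 12 and 4 tags in wild type against 17, 0 and 8 in the knockout for the nearer one, and 5, 7 and 10 against 2, 0 and 0 for the other. The nearest annotated gene to the 3 windows was Gm32328, a non-coding RNA that ends 4149 bp away, so which gene the windows serve cannot be told apart here. The sum for Mir148a kept an adjusted p of 0.00145 to 0.0295 without any 1 library. Of its seed relatives Mir152, with 9 windows, held 290, 302 and 201 tags in wild type against 310, 334 and 230 in the knockout (log2 fold change -0.10, SE 0.19, adjusted p 0.99). Mir148b had 1 window with at most 15 tags and was not tested.

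**Figure D3:**
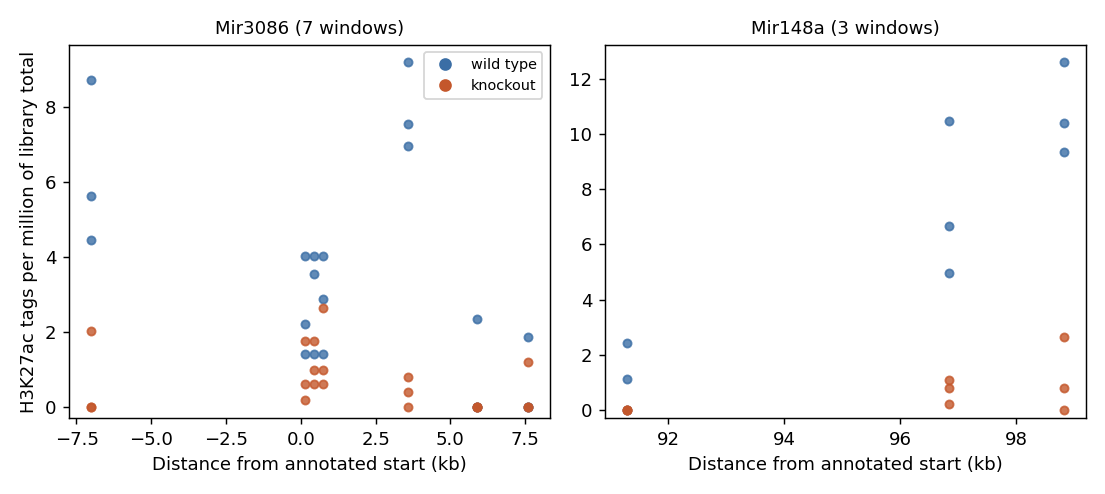
H3K27ac as CPM on the library total in each window of Mir3086 and Mir148a against the distance from the annotated start in kb, 1 point per library, wild type in blue and knockout in orange. The 2 main windows of Mir148a near 97 and 99 kb and the Mir3086 windows 3.58 kb downstream and 7.02 kb upstream had knockout points under all wild-type points.

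Other microRNA genes with small unadjusted p did not pass the adjustment. On the lower side Mir1231, whose 4 windows lie in Nav1, held 15, 26 and 70 tags in wild type against 6, 19 and 6 in the knockout (log2 fold change -2.04, SE 0.62, adjusted p 0.396). Wild-type replicate 3 held most of its wild-type tags. Mir582, with windows in the phosphodiesterase gene Pde4d, held 59, 87 and 85 against 56, 35 and 48 tags (-0.93, SE 0.35, adjusted p 0.643).

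On the higher side Mir5113, in Tnrc6b, held 15, 14 and 32 tags in wild type against 36, 63 and 66 in the knockout (log2 fold change 1.24, SE 0.46, adjusted p 0.627). Mir6989, beside the kinase gene Map4k2, held 26, 41 and 33 against 81, 69 and 77 tags (0.98, SE 0.36, adjusted p 0.634). Mir6418, in the G-protein gene Gnb2, held 8, 19 and 27 against 50, 55 and 39 tags (1.21, SE 0.48, adjusted p 0.718). In these 3 the groups did not overlap. Mir5132, in Irak1, which relays Toll-like receptor signals, held 16, 12 and 7 against 17, 54 and 43 tags, and its groups overlapped after scaling (1.45, SE 0.58, adjusted p 0.738). Mir5132 lies on the X chromosome, and without wild-type replicate 1 its log2 fold change was 1.81 (adjusted p 0.636).

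Among single windows with an adjusted p above 0.05, one of Mir5626 had no tags in wild type. It lies at chr9:70391412-70392412 in an intron of Myo1e, a membrane-linked myosin gene, and held 0, 0 and 0 tags in wild type against 17, 24 and 18 in the knockout. This window came from the knockout site list only, so it entered the table through the group where it is high, and its values are a description. Its adjusted p was 0.141 in edgeR, which did not pass, and 0.00638 in DESeq2. The window that overlaps it held 0, 0 and 0 against 17, 14 and 1 tags. The sum over all 11 windows of Mir5626 was 157, 157 and 172 against 217, 302 and 214 tags (log2 fold change 0.37, SE 0.20, adjusted p 0.901).

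Other windows of this kind were one of Mir6897 in Uggt1, also from the knockout list only, with 7, 3 and 9 tags in wild type against 35, 40 and 25 in the knockout (adjusted p 0.599), and one of Mir7656 in Slc9a9, with 7, 22 and 11 against 58, 39 and 33 (adjusted p 0.887). One of Mir6995 in Sh3pxd2a went the other way, with 21, 28 and 17 against 7, 2 and 3 tags (adjusted p 0.68). None of these groups overlapped. Of the 961 tested microRNA windows, 91 (9.47%) had groups that did not overlap, against 10.9% of all tested windows. An unadjusted p under 0.05 was found for 49 (5.10%, against 4.69%).

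The myeloid and inflammatory list named 33 microRNA genes, of which 19 had a window, 16 were tested and none was called. By edgeR and by DESeq2 0 of the 16 passed, and their smallest unadjusted p in edgeR was 0.0113, that of Mir142b. Their log2 fold changes had a median of 0.02, from -0.80 to 0.95, and 10 were above 0. Mir146, the gene of miR-146a, which damps Toll-like receptor signalling, had 10 windows with 423, 413 and 420 tags in wild type against 481, 515 and 464 in the knockout. That was 254.4 ± 19.3 and 254.1 ± 9.01 CPM (SD, n = 3), and the groups overlapped (log2 fold change 0.00, SE 0.14). Its relative Mir146b held 34, 30 and 16 against 30, 54 and 37 tags over 3 windows, and none of these carried H3K27ac by the test against input. Per window, Mir146 stood at 25.4 and Mir146b at 5.48 CPM in wild type.

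Mir21a, induced in activated macrophages, sits beside Vmp1, and its 10 windows held 585, 532 and 812 tags in wild type against 701, 701 and 688 in the knockout. The scaled means were 388 ± 72.9 and 365 ± 28.1 CPM (SD, n = 3), with overlapping groups (log2 fold change -0.09, SE 0.13). Of the miR-181 group, Mir181a-2 stood at 46.3 CPM per window in wild type and Mir181a-1 at 13.8, with Mir181c between them, and the log2 fold changes were 0.12, -0.15 and 0.02. Mir34a, a target of p53, had 9 windows and 104 ± 10.1 against 121 ± 5.80 CPM (log2 fold change 0.22, SE 0.20). No member carried the name Mir155, Mir223, Mir22, Mir30e, Mir23b, Mir124a-1 or Mir124a-2. Mir155hg and Mir22hg, host genes left out by the rule, were not analysed here.

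**Figure D4:**
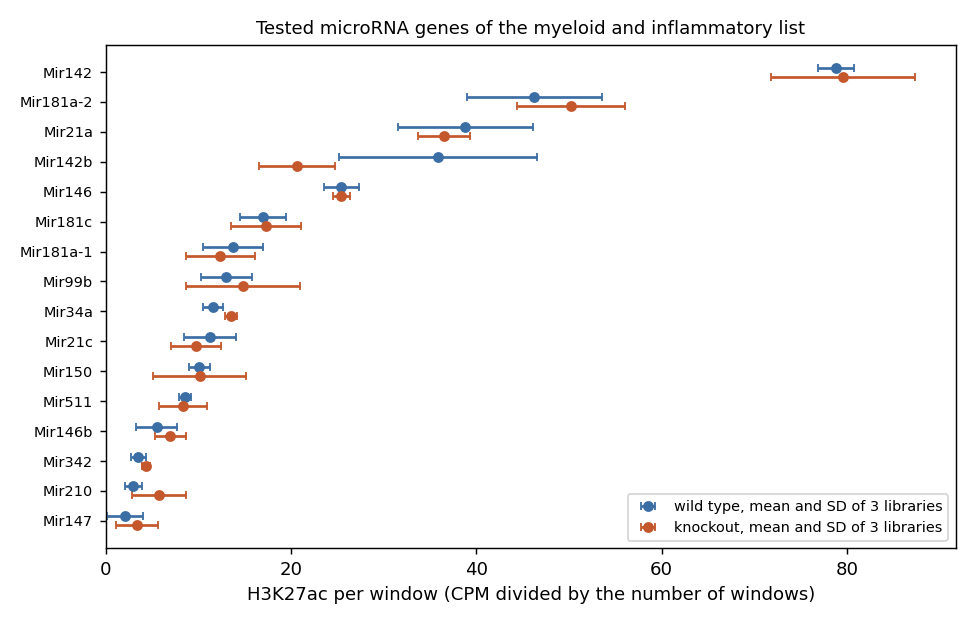
H3K27ac per window, the CPM of the sum divided by the number of windows, for the 16 tested microRNA genes of the myeloid and inflammatory list, with the mean and SD of 3 libraries per genotype. Mir142 stood highest at 78.8 CPM per window in wild type, and Mir142b was the gene with the lowest fold change, at 35.9 CPM in wild type.

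Of the let-7 family 4 genes had windows near an annotated Mirlet7 start and 3 were tested, with log2 fold changes from -0.16 to 1.20. Mirlet7a-1 (chr13:48538179-48538272) had 3 windows with 122, 156 and 157 tags in wild type against 159, 171 and 123 in the knockout, and all 3 carried H3K27ac. Mirlet7i (chr10:122985640-122985724) had 13 windows with 352, 363 and 351 tags against 501, 425 and 453, or 216 ± 14.8 and 241 ± 32.8 CPM (SD, n = 3). Mirlet7d held 0, 13 and 5 against 5, 25 and 18 tags, and Mirlet7b 0, 1 and 4 against 13, 6 and 11. Neither had a window that passed the test against input, which also holds where a window had too few tags to be tested. The fold change of Mirlet7d ran from 0.63 without wild-type replicate 1 to 2.43 without wild-type replicate 2. None of the 3 tested was called (smallest adjusted p 0.947, that of Mirlet7d, unadjusted 0.219). Mir7k, the gene of let-7k, held 1 tag over all 6 H3K27ac libraries.

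Of 36 listed neuronal and glial microRNA names 11 had a window and 3 were tested, none called (smallest adjusted p 0.988). Mir9-2, a microRNA gene of neural progenitors, had 1 window with 2, 7 and 2 tags in wild type against 0, 1 and 0 in the knockout, 0.977 and 0.312 times input. Mir124a-3, of the main neuronal microRNA, held 0, 0 and 6 against 2, 5 and 0 tags. Mir219a-1, of a microRNA known from oligodendrocytes, held 21.5 ± 6.93 and 25.5 ± 1.72 CPM (SD, n = 3).

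Of the miR-17-92 group and its paralogues 2 of 15 names had a window, and Mir17, known for promoting proliferation, was tested at 13.7 ± 3.72 and 19.2 ± 4.89 CPM (log2 fold change 0.49, adjusted p 0.97). Among microRNA genes reported to repress Nlrp3 or glutaminase, Mir23a and Mir7-1 were tested of 8 listed, with log2 fold changes of 0.11 and -0.16, and neither was called. Of 18 metabolic names 10 had a window and 4 were tested. Mir148a was the 1 called, and the others, Mir29b-1, Mir210 and Mir378a, had log2 fold changes of -0.06, 0.95 and 0.29.

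**Figure D5:**
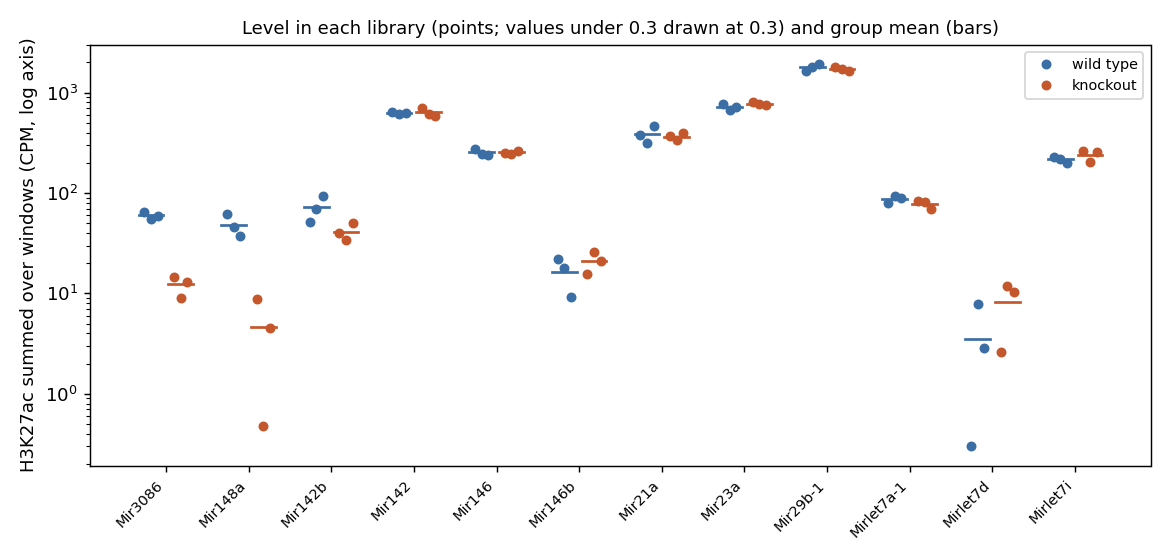
H3K27ac summed over windows, in CPM on a log axis, for 12 microRNA genes, 1 point per library (wild type blue, knockout orange, values under 0.3 drawn at 0.3) with the group mean as a bar. Mir3086, Mir148a and Mir142b had groups that did not overlap, while those of Mir142, Mir146, Mir21a, Mir23a, Mir29b-1 and the let-7 genes overlapped.

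Levels varied within seed groups. Over the seed group of let-7 the wild-type level per window ran from 1.77 to 29.2 CPM (3 tested genes), over miR-181 from 13.8 to 46.3 CPM (3 tested genes) and over Mir26a-2, Mir26b and Mir6932, which share CUGUUCU, from 2.38 to 16.0 CPM. In the seed group of miR-148a and miR-152 the wild-type levels per window of both tested genes were 16.1 and 17.96 CPM. The log2 fold change was -3.38 for Mir148a and -0.10 for Mir152, and the difference between these 2 genes was not tested.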

How the data were processed

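H3K27ac ChIP and input chromatin of mouse forebrain microglia were measured in 12 libraries, 3 per genotype and kind, grouped by genotype, antibody and title. The values are raw tag counts that the authors deposited, counted with HOMER on mm10 in 1000 bp windows per the file headers, which give each window its nearest gene. HOMER, mm10 and DESeq2 also stand in the submitters' processing notes. No aligner is given in the sources used here. Of the 2 deposited tables the scaled one was left aside.

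Members were summed per microRNA gene. Genotypes were compared in edgeR 4.0.16 under R 4.3.3: TMM, filterByExpr, a quasi-likelihood fit of 3 against 3 H3K27ac libraries over all windows or gene sums, and Benjamini-Hochberg adjustment at 0.05. H3K27ac was tested against input within genotype on total tags. A standard error is the fold change on the log2 scale divided by the root of F. The scripts were tested on simulated data. Alternatives were total tags, DESeq2 1.42.0, no filter, a replicate block, leaving out each library, a 10 kb limit, windows of both site lists, TMM against input and, added after seeing the data, dropping overlapping windows.

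Named were microRNA genes and windows called, the 5 per direction with the smallest p, the 10 genes highest in wild type, the 5 windows highest over input, and listed genes, except 1 called microRNA gene and its windows, which are not reported here. Members and lists were chosen with earlier results of these data known. Each window counts for its nearest start only, so tags in a host gene can count for its microRNA. Tags are not molecules, so floors cover counting error only.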

Additional observations from a re-analysis of the deposited data

How the results depend on the processing

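Between wild-type and knockout H3K27ac libraries of the same number, correlations of deviations were 0.0032, -0.0006 and 0.0026 over 40370 windows. Those between different numbers ran from -0.0097 to 0.0077. With few tags per window, counting error can hold such correlations near 0 for paired libraries too, so they cannot exclude pairing. Between H3K27ac and input of one number the wild-type correlations were 0.0140, 0.0060 and 0.0101, against -0.0150 to 0.0038 between different numbers. The knockout ones were 0.0034, 0.0046 and 0.0108, against -0.0122 to 0.0080. Wild-type input replicate 1, with 1 tag in the Y windows against 43 to 112 in the other inputs, stood apart as H3K27ac replicate 1 did. Whether libraries of one number came from the same material was not tested. A fit with the replicate number as a block called 0 microRNA windows and 2 microRNA genes, with 671 and 697 windows over input in wild type and knockout. Against 1 microRNA window called, DESeq2 called 4, where it called 0.104% of all windows. With no filter on low counts 4 were called, where of all 67051 windows 26 were called higher and 42 lower. Leaving out 1 library called 0 to 2. Against 3 microRNA genes called, a 10 kb limit and windows of both site lists each called 1 (Mir148a has no window within 10 kb and Mir3086 none in both lists), and leaving out 1 library called 2 to 3. Against 672 wild-type and 697 knockout windows over input, of 701 and 722 tested, TMM scaling, with 786 and 871 tested, called 104 and 141. Over all windows it called 4110 of 33047 and 5234 of 36917. Leaving out 1 library let more microRNA windows be tested, 773 to 930 in wild type and 781 to 940 in the knockout. It gave 736 to 788 and 754 to 835 over input. Of 481 alternative values of 41 named microRNA genes and windows, 434 kept direction and side of the threshold, 11 lost and 8 gained a call, and 28 changed sign, in 10 results with a log2 fold change near 0. Without 1 library these ran from -0.057 to 0.247 for Mir101c, -0.071 to 0.064 for Mir142, -0.037 to 0.015 for Mir701, -0.109 to 0.073 for Mir6398, -0.077 to 0.083 for Mir187, -0.045 to 0.061 for Mir146 and -0.219 to 0.056 for Mir21a, and from -0.051 to 0.082 for 1 window of Mir23a and -0.086 to 0.145 for 1 of Mir7117. A 10 kb limit gave 0.917 for Mir701, 0.018 for Mir7086, 0.163 for Mir6398 and -0.052 for Mir187. Windows of both lists gave -0.0081 for Mir142 and -0.016 for Mir187, and dropping overlaps 0.066 for Mir701 and 0.037 for Mir6398. Mir146 was at 0.0017 with no filter and 0.00040 with the replicate block. The cause of these changes was not tested. Depth limits what can be compared: 783 of 1744 microRNA windows held too few tags to be tested.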
